A study of Homo sapiens with 6 samples.

Results

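The miR-17-92 cluster and its paralogue, the miR-106b-25 cluster, are polycistronic miRNA genes: several hairpins are cut from a single primary transcript, and each mature strand then guides repression of mRNAs that match its seed, bases 2 to 8. The miR-17-92 cluster is induced by MYC and is known as an oncogenic cluster, amplified or raised in lymphoma and in colorectal tumours. Its products restrain the cell cycle inhibitor CDKN1A and the pro-apoptotic protein BCL2L11. The miR-106b-25 cluster sits inside MCM7, which encodes a subunit of the replicative helicase. The 10 mature entries described here, 6 from miR-17-92 and 4 from miR-106b-25, were taken by name from 2575 entries in the deposited tables, 717 of them with at least 1 count.

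The libraries come from small RNA sequencing of exosomes, the small vesicles that cells release, collected by centrifugation from medium of HCT116, a human colorectal cancer line. In the treated arm HCT116 cells met the gut anaerobe Bacteroides fragilis in its enterotoxigenic form (ETBF), which secretes a toxin, for 6 h at a multiplicity of infection of 500. In the control arm, titled untreated, cells received the bacterial medium without the bacterium. Each group has 3 libraries. Separate cultures are not stated, and the p-values then reflect spread among libraries that may be technical replicates. In all 6 libraries the title and the file name point to opposite groups. Groups here follow the titles; should the file names be correct instead, each direction given turns round, with sizes, errors and p-values as they are.

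The sequences show how the members relate. They are RefSeq mature sequences (GRCh38.p14, matched for 10 of 10 members), written 5′ to 3′ with the seed in capitals, and they are grouped by shared seed because strands of 1 seed group share much of their target range.
hsa-miR-17-5p: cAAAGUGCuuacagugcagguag
hsa-miR-20a-5p: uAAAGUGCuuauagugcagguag
hsa-miR-93-5p: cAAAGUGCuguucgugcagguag
hsa-miR-106b-5p: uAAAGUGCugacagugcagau
hsa-miR-18a-5p: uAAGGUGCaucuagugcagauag
hsa-miR-19a-3p: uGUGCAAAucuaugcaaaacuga
hsa-miR-19b-3p: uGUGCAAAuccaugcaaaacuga
hsa-miR-92a-3p: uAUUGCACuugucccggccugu
hsa-miR-25-3p: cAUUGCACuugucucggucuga
hsa-miR-106b-3p: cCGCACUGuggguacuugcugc
The 17 seed is held by 4 members from both clusters, the 19 seed by 2 members of miR-17-92, and the 92/25 seed by 1 member of each cluster. The 18 seed differs from the 17 seed by a single base and has 1 member. miR-106b-3p, the opposite arm of the miR-106b hairpin, has a seed of its own that no other matched entry of the tables shares.

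A further 3 sequences matter for what the counts can resolve. They are encoded by the X-linked miR-106a-363 cluster, the other paralogue.
hsa-miR-106a-5p: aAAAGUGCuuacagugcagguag
hsa-miR-20b-5p: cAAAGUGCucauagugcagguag
hsa-miR-18b-5p: uAAGGUGCaucuagugcaguuag
Counted from 1 at the 5′ end, miR-106a-5p departs from miR-17-5p at C1A alone, miR-18b-5p from miR-18a-5p at A20U alone, and miR-20b-5p from miR-20a-5p at U1C and U10C. Within miR-17-92, miR-19a-3p and miR-19b-3p are separated only by U11C.

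In the RefSeq annotation the mature strands of miR-17-92 lie within 765 bases at chr13:91350618-91351382 on the plus strand (GRCh38.p14), from 6 hairpins. Those of miR-106b-25 lie within 493 bases at chr7:100093571-100094063 on the minus strand, from 3 hairpins. GENCODE release 29 places the miR-17-92 hairpins in the non-coding host gene MIR17HG, overlapping an exon of some of its transcripts, and the miR-106b-25 hairpins in an intron of MCM7. The submitters' build is GRCh37.p5, so these positions are those of the sequence tables and not of the counting. miR-19b-3p and miR-92a-3p have a second locus with the same mature sequence on the X chromosome, and their counts cannot be split between the loci.

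Library totals ran from 200207 to 417321 counts. A floor of 3 counts corresponded to 8.29 to 14.6 CPM, the usual unit of counts set against a library size, here the size scaled by edgeR's TMM method, and floors and counting intervals cover counting error only. Of the 195 entries tested, 28 passed in the comparison of the titled groups (edgeR's quasi-likelihood test, Benjamini-Hochberg adjusted p under 0.05), a background of 14.4%, with 10.8% higher and 3.59% lower in the titled ETBF libraries. Leaving out titled ETBF replicate 1 raised this number to 59, and leaving out replicate 3 of either group lowered it to 17. The 7 colon epithelial markers all had counts, and their summed level was 22647 to 25662 CPM in titled ETBF libraries and 26755 to 27907 CPM in titled untreated libraries. Blood-cell markers, listed because blood cells hold much miR-92a, miR-25, miR-93 and miR-106b, also had counts for 7 of 7 entries and summed to 527.8 to 693.8 CPM in titled ETBF libraries and 669.3 to 729.2 CPM in titled untreated libraries. Muscle markers summed to 15343 to 18723 CPM in titled ETBF libraries and 19461 to 20876 CPM in titled untreated libraries, and the liver marker miR-122-5p stood at 4804 to 5062 CPM and 5420 to 6556 CPM in the same groups. The part of these other sources in the members' levels was not tested.

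All 10 members were detected in each of the 6 libraries, and together they were a small fraction of the exosomal miRNA counts. They held 1.16%, 1.04% and 0.784% of the counts in the titled ETBF libraries and 0.920%, 0.961% and 1.04% in the titled untreated libraries, so the groups overlapped. The totals differ in make-up. miR-7641 held 1340, 943 and 1624 counts in the titled ETBF libraries, against 48895, 45308 and 43088 in the titled untreated libraries. miR-148a-3p held 83002, 94463 and 213444 against 52566, 140805 and 98337 in the same groups. The overlap holds for the full totals, and shares without these entries were not computed. Members of 1 transcript differed widely in level. miR-92a-3p, the most abundant by the deposited counts, averaged 3821 ± 210.4 CPM (SD over 6 libraries) and ranked 29 among all entries, while miR-18a-5p, cut from the same transcript, averaged 20.2 ± 6.31 CPM. The count of miR-92a-3p was 128 to 250.7 times that of miR-18a-5p, depending on the library.

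From highest to lowest the order of mean levels over 6 libraries was miR-92a-3p, miR-25-3p (2160 ± 388.7 CPM), miR-106b-3p (1047 ± 208.9 CPM), miR-20a-5p (978.8 ± 29.04 CPM), miR-93-5p (657.5 ± 38.0 CPM), miR-17-5p (526.7 ± 39.4 CPM), miR-19b-3p (384.6 ± 38.4 CPM), miR-106b-5p (182.0 ± 20.3 CPM), miR-19a-3p (35.9 ± 10.7 CPM) and miR-18a-5p. Neighbours in that order did not overlap in range, with 2 exceptions. miR-106b-3p exceeded miR-20a-5p in 4 of 6 libraries. miR-19a-3p exceeded miR-18a-5p in 5 of 6, and each had 4 counts in titled ETBF replicate 2. The order within these pairs was not tested. The mature strands are 21 to 23 bases long, so a count per read is close to a count per length, but adapters ligate to different ends with different ease and the counts were not corrected for it. CPM is a share of the library, so fewer vesicles that carry a miRNA and fewer copies per vesicle cannot be told apart.

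**Figure D1:**
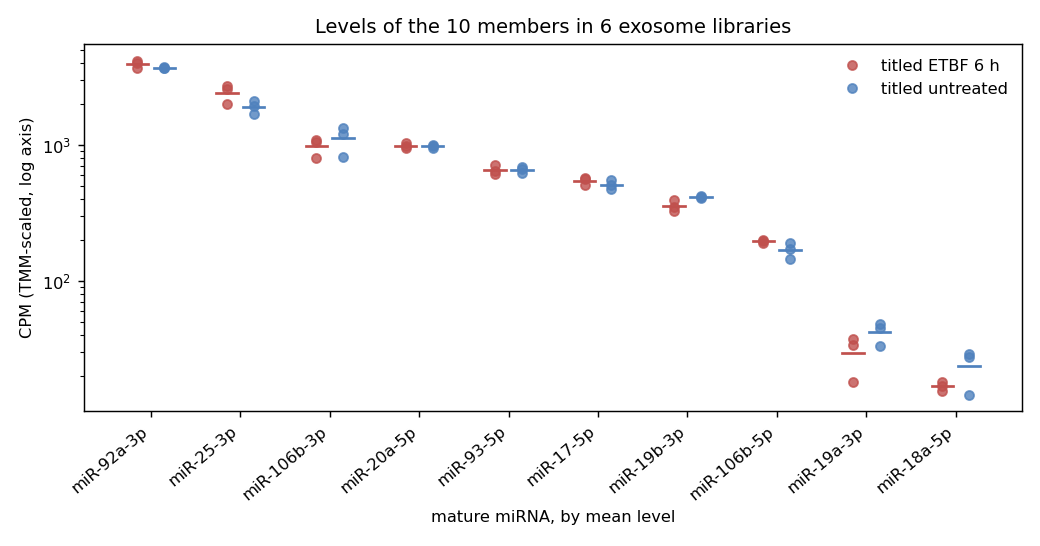
Level of each member in CPM (TMM-scaled, log axis), with 1 point per library and a bar at the mean of 3 libraries, titled ETBF in red on the left and titled untreated in blue on the right of each pair. The levels run down from miR-92a-3p at 3821 CPM to miR-18a-5p at 20.2 CPM, a far wider range than the gap between the groups of any member.

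As a share of the miR-17-92 counts, miR-92a-3p took 67.2% ± 0.858 in titled ETBF libraries and 65.3% ± 0.332 in titled untreated libraries (SD, n = 3 each). miR-20a-5p took 16.7% ± 0.560 and 17.2% ± 0.289, and miR-17-5p took 9.25% ± 0.141 and 9.01% ± 0.755, in the same groups. In miR-106b-25, miR-25-3p likewise led with 56.7% ± 2.31 in titled ETBF libraries and 49.5% ± 2.13 in titled untreated libraries. The most abundant strand of each cluster was thus the one with the 92/25 seed.

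None of the 9 members with enough counts for the test passed it. Against the background of 14.4%, 0 of 9 were called by edgeR. None of them was called by DESeq2, which called 14.9% of all tested entries, or by limma-voom, which called 12.8%. DESeq2 gave no adjusted p for miR-19a-3p, so that member could not be called there. At an unadjusted p under 0.05 there was 1 member, miR-25-3p, where 33.8% of all tested entries reached that level. Their log2 fold changes, titled ETBF over titled untreated, ran from -0.42 to 0.34 with a median of 0.01, beside a median of -0.03 and a range from -5.18 to 3.40 over all 195 tested entries. Of the 9, 6 had a positive and 3 a negative value. The groups of libraries did not overlap for 2 members, miR-106b-5p and miR-19b-3p, where 39% of all tested entries have such groups.

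The 17 seed group, whose strands are known to repress CDKN1A and to act in cell cycle entry, had log2 fold changes from 0.0041 to 0.20, none of them past the test. The signs of miR-17-5p, miR-20a-5p and miR-93-5p turned negative in 1, 5 and 6 of 17 settings, while that of miR-106b-5p was positive in 17 of 17. The settings refit the same libraries, so they are not independent. miR-20a-5p stood at 980.0, 1024 and 944.7 CPM in the titled ETBF libraries, against 953.5, 997.1 and 973.6 CPM in the titled untreated libraries. The values interleave, and the log2 fold change was 0.01 with a 95% interval from -0.18 to 0.20 (edgeR, adjusted p = 0.927). On a linear scale that interval runs from 0.882-fold to 1.15-fold.

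miR-17-5p, which differs from miR-20a-5p at 2 of 23 bases, stood at 559.0, 568.4 and 504.9 CPM in the titled ETBF libraries, against 554.6, 502.7 and 470.8 CPM in the titled untreated libraries. The groups overlap, and the log2 fold change was 0.10 (95% interval -0.15 to 0.35, edgeR adjusted p = 0.549). miR-93-5p, the 17-seed strand of the MCM7 intron, stood at 714.0, 613.5 and 644.2 CPM in the titled ETBF libraries, against 686.0, 662.9 and 624.5 CPM in the titled untreated libraries. The log2 fold change was 0.0041 with an interval from -0.23 to 0.23.

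miR-106b-5p, cut from the hairpin next to it, was less abundant. It held 195.3, 189.5 and 201.3 CPM in the titled ETBF libraries, against 145.9, 171.2 and 188.9 CPM in the titled untreated libraries. All titled ETBF libraries lie above all titled untreated ones, but by a margin under 1 CPM, and the counts behind them were 58, 42 and 65 against 30, 62 and 59. Its log2 fold change was 0.20 (95% interval -0.16 to 0.55, edgeR adjusted p = 0.422).

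The 19 seed group, the part of the cluster best known for driving lymphoma in mice, was lower on average in the titled ETBF libraries, without passing the test. miR-19b-3p held 350.2, 392.5 and 325.2 CPM in the titled ETBF libraries, against 403.8, 419.8 and 416.3 CPM in the titled untreated libraries. The titled untreated libraries are tightly grouped above all titled ETBF libraries. The log2 fold change was -0.23 with a 95% interval from -0.49 to 0.04 (edgeR, adjusted p = 0.215).

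Its near-twin miR-19a-3p had few counts, 10, 4 and 12 in the titled ETBF libraries against 10, 12 and 14 in the titled untreated libraries. The groups overlap, and titled ETBF replicate 2 alone, at 18.05 CPM, is low. The log2 fold change was -0.42 with a wide interval, from -1.15 to 0.32 (edgeR, adjusted p = 0.450), and it was -0.18 without that library. Both members of the seed group had a negative log2 fold change in every setting that tested them, 16 of 16 for miR-19a-3p and 17 of 17 for miR-19b-3p. As refits of the same libraries, these settings are not independent support for the sign. miR-19b-3p outnumbered miR-19a-3p 10.7 to 1 in summed counts, although the strands differ at a single base.

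The 92/25 seed group, which is known to target BCL2L11, was the most abundant and held the member nearest to the threshold. miR-25-3p stood at 2011, 2562 and 2685 CPM in the titled ETBF libraries, against 1674, 1925 and 2101 CPM in the titled untreated libraries. Titled ETBF replicate 1 lies within the range of the titled untreated libraries, and the other 2 lie above it. The log2 fold change was 0.34, a ratio of 1.27 (95% interval 1.04 to 1.56, unadjusted p = 0.0266, edgeR adjusted p = 0.0939). It passed in 3 of 17 settings. Without titled ETBF replicate 1 the log2 fold change was 0.43 (edgeR, adjusted p = 0.00457, against 0.00457 to 0.471 over the settings tried), as 1 of 9 members called where 28.1% of all tested entries were. With upper-quartile scaling it was 0.41 (adjusted p = 0.0385), where 21.5% of all tested entries were called. Summed levels of the colon epithelial, muscle and liver markers, given above, were lower in each titled ETBF library than in any titled untreated library. Those of the blood-cell markers overlapped between the groups. Single markers differed. miR-192-5p, miR-194-5p, miR-375, miR-1, miR-133a-3p and miR-122-5p did not overlap between groups, nor did miR-142-5p of the blood-cell markers. Such groups are found for 39% of all tested entries. miR-200b-3p, miR-200c-3p, miR-141-3p, miR-215-5p, miR-206 and the other blood-cell markers overlapped. Of these markers only miR-375 passed (log2 fold change -0.61, edgeR adjusted p = 0.0432). Their part in the difference of miR-25-3p was not tested.

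miR-92a-3p, with the same seed and 18 of 22 bases in common with miR-25-3p, stood at 4152, 4020 and 3686 CPM in the titled ETBF libraries, against 3658, 3720 and 3689 CPM in the titled untreated libraries. The groups overlap, and the spread is wider in the titled ETBF libraries. Its log2 fold change was 0.10 (95% interval -0.09 to 0.28, edgeR adjusted p = 0.439). The log2 fold changes of miR-92a-3p and miR-25-3p were positive in 17 of 17 settings each, which are not independent.

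Entries outside both clusters also hold the 92/25 seed, and they were looked up after the members' values were known. miR-32-5p had 150 and miR-92b-3p 75 counts in all, against 10294 for miR-92a-3p and miR-25-3p together. miR-92b-3p averaged 50.9 ± 1.56 CPM in titled ETBF libraries and 36.0 ± 2.40 CPM in titled untreated libraries, with groups that did not overlap and a log2 fold change of 0.49 (edgeR, adjusted p = 0.296). miR-32-5p averaged 82.2 ± 8.34 CPM in titled ETBF libraries and 91.9 ± 5.13 CPM in titled untreated libraries (log2 fold change -0.16, edgeR adjusted p = 0.615). miR-92b-3p and miR-32-5p thus had opposite signs, neither past the test.

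**Figure D2:**
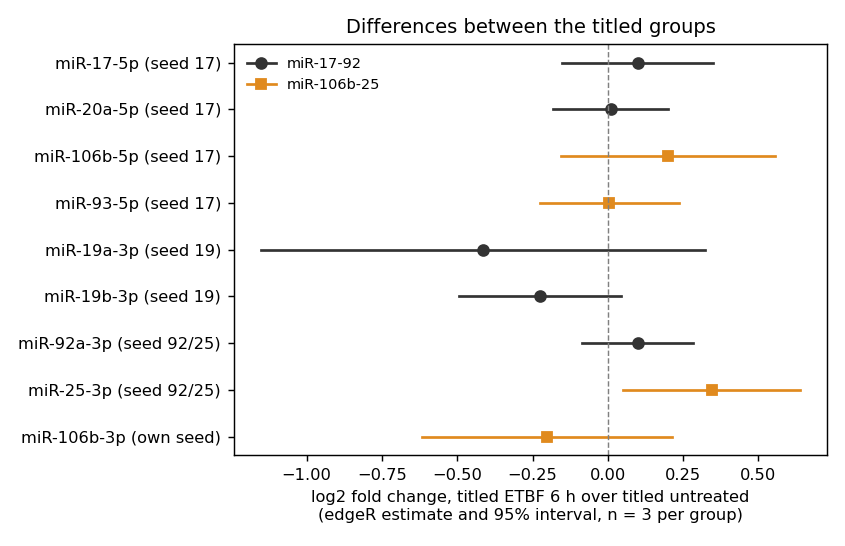
Log2 fold change of the 9 tested members, titled ETBF over titled untreated, with 95% intervals from edgeR (n = 3 per group), ordered by seed group; circles mark miR-17-92 and squares miR-106b-25. The interval of miR-25-3p alone lies above 0, from 0.05 to 0.64, and that of miR-19a-3p is the widest.

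The 18 seed member miR-18a-5p, a known repressor of the anti-angiogenic protein thrombospondin, did not reach the minimum count of the main test. It held 5, 4 and 5 counts in the titled ETBF libraries and 3, 10 and 9 in the titled untreated libraries, at 15.5 to 18.05 CPM against 14.6 to 28.8 CPM. Summed over libraries it had 15.7 CPM of the unscaled totals in the titled ETBF group (exact Poisson 95% interval 8.60 to 26.4) and 25.5 in the titled untreated group (16.0 to 38.6). Tested without the filter on low counts, its log2 fold change was -0.57 (edgeR, adjusted p = 0.642). No difference between the groups was detected, and the size that could be detected at this depth was not tested.

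Ratios within a library are free of the scaling between libraries. The counts of the miR-17-92 members were 1.64, 1.37 and 1.19 times those of the miR-106b-25 members in the titled ETBF libraries and 1.70, 1.39 and 1.37 times in the titled untreated libraries. The ranges overlap, and replicate 1 is the highest in each group.

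By seed, the 92/25 group made up 62.8%, 62.9% and 62.9% of the members' counts in the titled ETBF libraries and 59.5%, 57.7% and 59.5% in the titled untreated libraries. The groups do not overlap, and the means differ by 3.99 percentage points (SD 0.0512 points in titled ETBF and 1.06 points in titled untreated libraries). The 17 group made up 23.5% ± 1.26 in titled ETBF libraries and 24.4% ± 1.54 in titled untreated libraries (SD, n = 3 each), with overlap. The 19 group made up 3.91%, 3.92% and 3.58% in the titled ETBF libraries and 5.05%, 4.63% and 4.74% in the titled untreated libraries, again without overlap. Groups that do not overlap are common in these libraries, at 39% of all tested entries, and nothing is read from them here. miR-106b-3p made up 9.64% ± 1.34 in titled ETBF libraries and 11.7% ± 2.29 in titled untreated libraries, and the 18 group 0.166% ± 0.0111 and 0.247% ± 0.0732. With single libraries left out the difference was 3.38 to 4.31 percentage points for the 92/25 group and -1.09 to -0.88 for the 19 group. These shares sum to the whole, so they are not independent, and as sums over chosen members they were given no test.

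**Figure D3:**
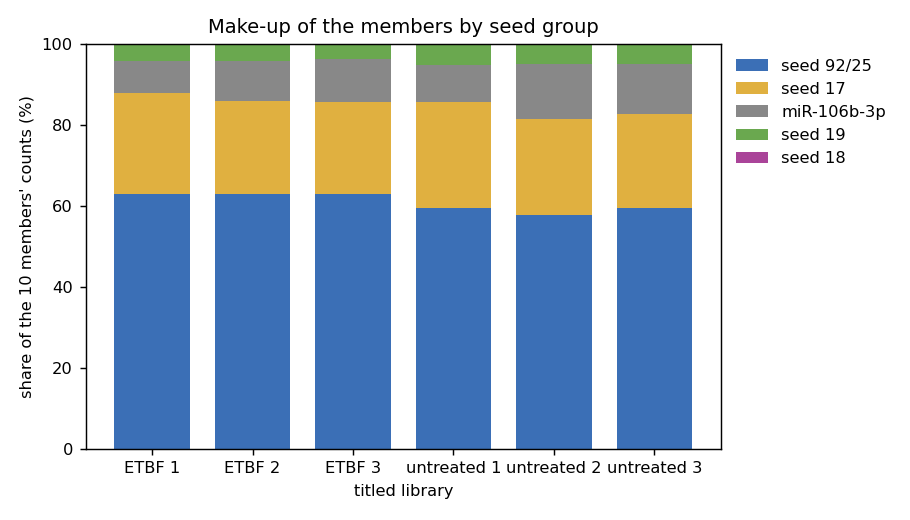
Share of the 10 members' counts in each seed group, as stacked bars from 0 to 100%, for the 3 titled ETBF libraries on the left and the 3 titled untreated libraries on the right. The 92/25 group is at 62.8% to 62.9% in the titled ETBF libraries and 57.7% to 59.5% in the titled untreated libraries; the 18 group is too thin to see.

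Both leading strands had a larger share of their own cluster in the titled ETBF libraries. miR-92a-3p took 68.2%, 66.5% and 66.9% of the miR-17-92 counts in the titled ETBF libraries and 64.9%, 65.3% and 65.6% in the titled untreated libraries. miR-25-3p took 54.1%, 58.0% and 58.2% of the miR-106b-25 counts in the titled ETBF libraries and 50.4%, 47.1% and 51.1% in the titled untreated libraries. Neither pair of groups overlaps, as for 39% of the levels of all tested entries. The shares that were lower in the titled ETBF libraries without overlap were those of miR-19b-3p, at 6.05% ± 0.396 in titled ETBF libraries and 7.31% ± 0.126 in titled untreated libraries, and of miR-106b-3p, at 22.9% ± 1.29 and 28.7% ± 3.97 of its cluster in the same groups.

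**Figure D4:**
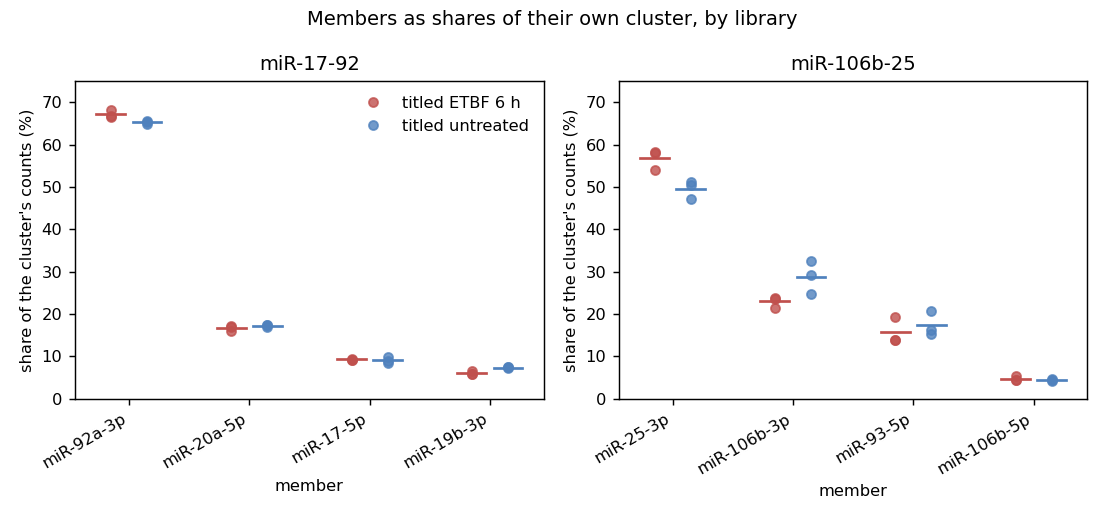
Share of each cluster's counts held by its 4 most abundant strands, in %, with 1 point per library and a bar at the mean, titled ETBF in red left of titled untreated in blue. The groups of miR-25-3p and miR-106b-3p differ in opposite directions within miR-106b-25, while the miR-17-92 shares differ by at most 1.92 percentage points between group means.

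The ratios of 6 pairs of members were also compared within libraries by an exact permutation test, two-sided, which with 3 against 3 libraries cannot go below 0.1 and so cannot pass 0.05. The ratio of miR-106b-5p to miR-106b-3p, the arms of 1 hairpin, was 0.245, 0.179 and 0.186 in the titled ETBF libraries and 0.179, 0.129 and 0.158 in the titled untreated libraries. The groups touch without overlapping, with a log2 difference of 0.39 ± 0.20 (SE, n = 3 each, exact permutation p = 0.1, adjusted p = 0.6 over 6 pairs). The ratio of miR-92a-3p to miR-25-3p was 2.07, 1.57 and 1.37 in the titled ETBF libraries and 2.19, 1.93 and 1.76 in the titled untreated libraries, with overlap (log2 difference -0.25 ± 0.20, SE, exact permutation p = 0.3, adjusted p = 0.6).

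The smallest difference among the 6 was in the ratio of miR-17-5p to miR-92a-3p, the first and the last strand of the miR-17-92 transcript, which was 0.138 ± 0.0034 in titled ETBF libraries and 0.138 ± 0.0123 in titled untreated libraries (SD, n = 3 each, exact permutation p = 1.0). The log2 differences of the other 3 pairs were 0.09 for miR-17-5p over miR-20a-5p, -0.34 for miR-19a-3p over miR-19b-3p and -0.22 for miR-93-5p over miR-106b-5p (exact permutation p = 0.4, 0.6 and 0.2, adjusted p = 0.6, 0.72 and 0.6).

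The miR-106b hairpin gave counts from both arms. Its -3p strand outnumbered the -5p strand in each library, 4.09, 5.57 and 5.38 to 1 in the titled ETBF libraries and 5.60, 7.76 and 6.34 to 1 in the titled untreated libraries. The less abundant arm, miR-106b-5p, thus held 14.6% of the hairpin's counts over 6 libraries (Wilson 95% interval 13.2% to 16.2%). miR-106b-3p itself stood at 798.1, 1056 and 1084 CPM in the titled ETBF libraries, against 817.3, 1329 and 1198 CPM in the titled untreated libraries. Replicate 1 is the lowest in each group, the groups overlap, and the log2 fold change was -0.20 (95% interval -0.62 to 0.21, edgeR adjusted p = 0.485). Leaving out titled untreated replicate 1 gave -0.35, and leaving out replicate 2 of that group gave -0.06.

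The opposite arms of the other hairpins had few counts. Of the 8 other-arm entries of the 2 clusters, 6 had any counts, 38 in all 6 libraries together. miR-17-3p had 8 counts, 0.883% of its hairpin (Wilson 95% interval 0.448% to 1.73%), miR-93-3p had 11, 0.962% (0.538% to 1.72%), and miR-25-5p had 11, 0.294% (0.164% to 0.526%). miR-92a-1-5p had 2 counts beside 6565 for miR-92a-3p. Counts of miR-92a-3p and miR-19b-3p may include reads of their X-linked loci, so their values are not shares of 1 hairpin alone. For miR-19b-1-5p, 0 of 661 counts gave a Wilson 95% upper limit of 0.578%, and for miR-19a-5p, 0 of 62 gave 5.83%. miR-18a-3p had 5 counts beside 36 for miR-18a-5p, 12.2% with an interval from 5.32% to 25.5%, too few to place it.

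**Figure D5:**
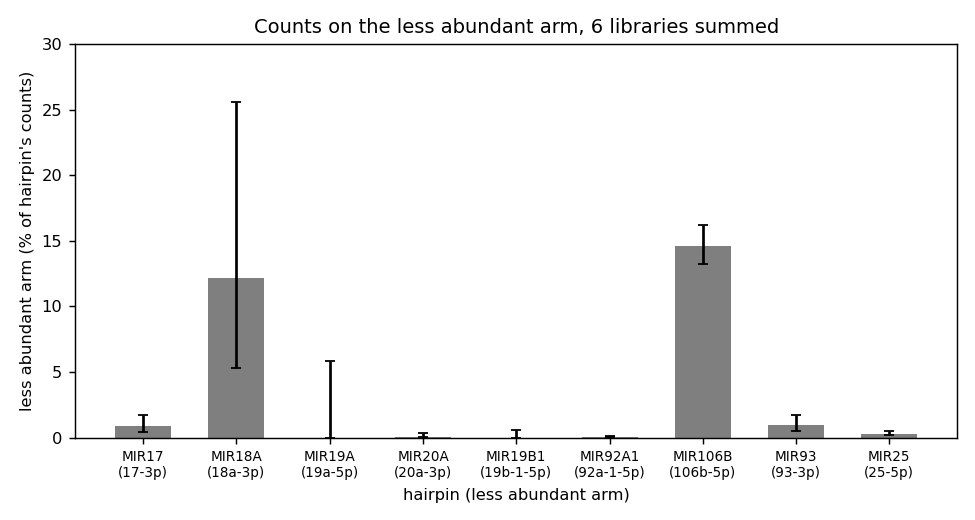
Less abundant arm of each hairpin as a share of that hairpin's counts (%), with 6 libraries summed and Wilson 95% intervals as error bars. For MIR19B1 and MIR92A1 the counts of miR-19b-3p and miR-92a-3p may include reads of their X-linked loci. The miR-106b hairpin stands at 14.6% and the miR-18a hairpin at 12.2% with a wide interval, while the other 7 lie under 1%.

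The third paralogous cluster, miR-106a-363 on the X chromosome, had few counts as well. Its 10 entries that are not shared with miR-17-92 held 11 counts in all 6 libraries, and 7 of them held 0. miR-106a-5p had 1 count beside 898 for miR-17-5p, and miR-20b-5p had 2 beside 1684 for miR-20a-5p. miR-18b-5p had 0, and miR-363-3p, which carries the 92/25 seed, had 8. None of the 18 other entries of the 3 clusters reached the count needed for the test, so 0 passed in either direction.

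Whether reads with a second matching locus were counted at each locus bears on the levels of miR-19b-3p and miR-92a-3p. Counting each read at both loci would give even counts. Each of these entries had an odd count in 3 of 6 libraries, such as 1233 for miR-92a-3p in titled ETBF replicate 1. Of 23 entries with 2 loci and at least 10 counts in each library, 3 had even counts in all 6 libraries. miR-199a-3p, another entry with 2 loci, was odd in 1 of 6 libraries, yet its counts were 2.00 times those of miR-199b-3p, a strand of identical sequence. How such reads were counted for miR-19b-3p and miR-92a-3p cannot be read from the tables. With the counts of miR-19b-3p and miR-92a-3p divided by 2, the difference in the 92/25 share was 4.74 percentage points. miR-92a-3p would then average 1910 ± 105.2 CPM (SD over 6 libraries), below the mean of miR-25-3p and above it in 2 of 6 libraries, so which of them leads depends on this choice. The ratio of the clusters would be 1.03, 0.867 and 0.760 in the titled ETBF libraries and 1.08, 0.888 and 0.868 in the titled untreated libraries.

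The spread between replicates was also compared. The median within-group coefficient of variation of the 9 tested members was 7.38%, beside 15.3% over all tested entries and 15.9% over the 154 other tested entries within the members' range of levels. The 154 entries were bounded by the lowest and highest tested member and not matched to single members in level. Whether the members' spread is low for their level was not tested. miR-20a-5p had 3.27%, the lowest of the members, and miR-19a-3p 27.8%, the highest of those tested. These are descriptions with no test.

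By their pattern over the 6 libraries, the tested entries most like the summed miR-17-92 members were miR-191-5p, miR-222-3p and miR-423-3p. Likeness was the root-mean-square difference of centred log2(CPM + 1) values, at 0.048, 0.049 and 0.054, where the median over 186 other entries was 0.27. For the summed miR-106b-25 members they were let-7b-5p, miR-101-3p and miR-221-3p, at 0.10, 0.12 and 0.13, where the median was 0.30. The levels of miR-191-5p, miR-222-3p and miR-423-3p spanned 1.20-fold, 1.16-fold and 1.09-fold over the 6 libraries.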

How the data were processed

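Exosomal small RNA of HCT116 cells was sequenced in 6 libraries, 3 per group by the sample titles. The deposited values are raw counts, as whole numbers for each mature strand. The submitters' processing notes list GRCh37.p5 and the tools featureCounts, Trimmomatic and FastQC. No aligner, tool version or source of miRNA models is given in the sources used here. Library preparation started from 100 ng of total RNA with an Illumina TruSeq kit, per the labels' protocols.

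edgeR's filterByExpr (minimum count 10) kept 195 of 2575 entries. TMM-scaled counts (factors 0.776 to 1.19) were tested with edgeR's two-sided quasi-likelihood F-test, with Benjamini-Hochberg adjustment over all 195. A standard error was taken as |log2 fold change| divided by the root of the F statistic, and 95% intervals use the t distribution. Ratios of members used exact permutation. Sequences come from RefSeq. The fit was tested on simulated data. The members and lists were chosen with earlier results of these data known. All 10 members are named; like entries are the 3 with the smallest root-mean-square difference. Alternatives were other scalings and filters, DESeq2, limma-voom, the replicate block, miR-7641, miR-6087 and miR-1246 left out, near-identical copies summed, counts divided by loci, and each library left out. Versions were edgeR 4.0.16, limma 3.58.1 and DESeq2 1.42.0 in R 4.3.3, and scipy 1.17.1.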

Additional observations from a re-analysis of the deposited data

How the results depend on the processing

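The count of members past the threshold was 0 in 14 of 17 settings and 1, miR-25-3p, with upper-quartile scaling, with the replicate block and without titled ETBF replicate 1; over single libraries left out it was 0 to 1. With the replicate block, miR-25-3p had a log2 fold change of 0.35 (adjusted p = 0.0213), and 19.5% of all tested entries were called. Same-numbered libraries correlated at 0.15, 0.07 and -0.01 in their deviations from group means, and differently numbered ones at -0.14 to 0.09. Whether the numbers pair the libraries cannot be decided from these values. All calls numbered 28 in the main setting, 51 with no filter and 17 to 59 with single libraries left out. Values near 0 changed sign. That of miR-20a-5p was -0.0444 with library size only, -0.0027 with no filter and -0.0137 with the 10 CPM filter, and that of miR-93-5p was -0.0501, -0.0101 and -0.0185 in the same settings and -0.0022 with the replicate block. With single libraries left out they ran from -0.0472 to 0.0321 and from -0.0907 to 0.085, and that of miR-17-5p from -0.0112 to 0.18. The log2 difference of the miR-17-5p to miR-92a-3p ratio was 0.0018 with copies summed and -0.0563 to 0.068 with single libraries left out, and that of miR-19a-3p to miR-19b-3p was -0.60 to 0.0565. With single libraries left out, the other pairs ranged from 0.25 to 0.50 for miR-106b-5p over miR-106b-3p, -0.41 to -0.12 for miR-92a-3p over miR-25-3p, -0.34 to -0.09 for miR-93-5p over miR-106b-5p and 0.03 to 0.16 for miR-17-5p over miR-20a-5p. With counts divided by the number of loci, the difference in shares was 4.74 percentage points for the 92/25 group and -0.75 for the 19 group, since the construction changes the members' total. The cause of the other moves was not tested. Depth limits miR-18a-5p and miR-19a-3p most.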
